A study of Mus musculus with 8 samples.

Results

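The 9 genes described here make, load, recycle and break down the transmitter acetylcholine or encode its muscarinic receptors. They are Chat, Slc18a3, Slc5a7, Ache, Bche, Chrm1, Chrm2, Chrm3 and Chrm4, and were taken by exact symbol from the 21959 genes of the deposited table; each symbol matched 1 row. They were followed across 8 libraries of polyadenylated mouse RNA, 4 labelled Model and 4 labelled IsoL. The study concerns sleep and isoliensinine, an alkaloid of plant origin. The Model group carries the label PCPA (para-chlorophenylalanine, which blocks serotonin synthesis) and the IsoL group the label isoliensinine. Genotype is given as WT for both groups. The series text describes female ICR mice of unstated age, dosed over 7 days, injected with pentobarbital 40 minutes after the last dose and dissected for hypothalamus. The tissue label itself reads brain. IsoL doses of 12.5, 25 and 50 mg/kg are listed, and neither the dose that was sequenced nor whether the IsoL mice also had PCPA is stated. Untreated and alprazolam mice were not analysed here, and every direction given is that of IsoL against Model. Whether the 4 libraries of a group are 4 mice is not stated, so p-values reflect only the spread among libraries, possibly technical.

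Each library held 14262836 to 21620466 gene counts. Transcripts of 4 Y-linked genes were read in every library (301 to 354 CPM in sum, where CPM is the read count scaled to one common library size), against the stated sex. Model 2 was the most distant library: comparing its counts with those of any other gave a chi-square of 11.4 to 15.9 per degree of freedom, where pairs without it gave 2.58 to 10.1. The dissection of hypothalamus given in the series text was checked against 14 hypothalamic markers, all read in every library. Their summed level was 201 to 232 CPM in Model and 78.3 to 162 CPM in IsoL. Pmch, which encodes a peptide of the lateral hypothalamus, was 1 of 13 tested members of that list to pass, lower in IsoL (edgeR adjusted p = 0.0471). Markers of neighbouring regions were also read. The 5 markers of the dorsal midbrain summed to 4.34 to 12.0 CPM in Model and 15.9 to 36.9 in IsoL. Of them, 3 (Dmbx1, Tfap2d and Mab21l2) passed as higher (edgeR adjusted p = 0.0434, 0.0434 and 0.0471). Over all 14536 genes tested, 40 passed in either direction (0.275%). The 4 astrocyte markers summed to 983 to 1096 CPM in Model and 1099 to 1214 in IsoL, with none passing. The hypothalamic, dorsal midbrain and astrocyte sums thus did not overlap between the groups, and their part in the contrasts that follow was not tested. The 7 markers of the medial habenula summed to 69.1 CPM in Model 1 and 70.8 in Model 2, against 113 to 162 in the other 6 libraries. The 8 markers of cortex and hippocampus summed to 276 CPM in IsoL 1 and 260 in IsoL 2, against 140 to 167 in the other 6. Of the 6 Hox genes on the list for hindbrain, Hoxb3 and Hoxa3 were at 0 in all 8 libraries and the others at 0 in at least 3. Tph2 and Slc6a4 of the raphe ranged from 1.001 to 21.4 and from 0.501 to 16.9 CPM.

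Acetylcholine is made from choline and acetyl-CoA by choline acetyltransferase (Chat), packed into vesicles by the vesicular acetylcholine transporter (Slc18a3) and cleaved in the synaptic cleft by acetylcholinesterase (Ache). The choline set free is taken back into the nerve ending by the high-affinity choline transporter (Slc5a7). Only cholinergic neurons carry the full presynaptic set. Groups of them lie in the basal forebrain, the striatum, the medial habenula and nuclei of the brainstem, among other regions. Cholinergic neurons of the basal forebrain and brainstem are active in waking and in REM sleep. Muscarinic receptors are spread far more widely: Chrm1 and Chrm3 encode receptors that couple to Gq and raise neuronal excitability, and Chrm2 and Chrm4 receptors that couple to Gi and often sit on the nerve ending itself as a brake on release. Mice that lack both Chrm1 and Chrm3 lose most of their REM sleep.

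Chat and Slc18a3 form a nested gene pair known as the cholinergic locus, in which the transporter lies within an intron of the enzyme gene. In the deposited table Chat (ENSMUSG00000021919) runs from 32130160 to 32187946 on the minus strand of chromosome 14, and Slc18a3 (ENSMUSG00000100241) from 32184395 to 32186807 inside it. These coordinates are on a build not given in the sources used here, and none of the 9 genes starts at its GRCm38 position. In the GENCODE M21 annotation (GRCm38) the exons of the 8 Chat transcripts and of Slc18a3 share 0 bases, but reads from unspliced Chat RNA over Slc18a3 cannot be told from reads of Slc18a3. No other member overlaps a gene of the table. Slc5a7 (ENSMUSG00000023945) lies on chromosome 17, 54580618 to 54606062, on the minus strand. Since these 3 genes shared a pattern across libraries, the 250 bases before each start site are shown as RefSeq gives them (GRCm38.p6, minus strand, 5′ to 3′), chr14:32465910-32466159 for Chat, chr14:32464851-32465100 for Slc18a3 and chr17:54299035-54299284 for Slc5a7. Capitals mark matches to the motifs searched.
Chat: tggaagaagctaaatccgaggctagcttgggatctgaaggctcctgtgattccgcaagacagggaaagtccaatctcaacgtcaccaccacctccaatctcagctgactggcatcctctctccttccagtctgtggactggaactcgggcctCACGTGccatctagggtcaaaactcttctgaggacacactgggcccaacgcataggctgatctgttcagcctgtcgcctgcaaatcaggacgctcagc
Slc18a3: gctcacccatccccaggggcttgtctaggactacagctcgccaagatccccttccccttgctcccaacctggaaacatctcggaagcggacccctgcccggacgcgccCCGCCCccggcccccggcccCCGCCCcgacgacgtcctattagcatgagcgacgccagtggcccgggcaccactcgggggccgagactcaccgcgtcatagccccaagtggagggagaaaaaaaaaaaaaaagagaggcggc
Slc5a7: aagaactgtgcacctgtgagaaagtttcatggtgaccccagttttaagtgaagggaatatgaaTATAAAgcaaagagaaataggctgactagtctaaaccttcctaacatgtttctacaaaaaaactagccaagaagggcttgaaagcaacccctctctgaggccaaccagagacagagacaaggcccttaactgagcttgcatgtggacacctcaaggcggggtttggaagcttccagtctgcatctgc

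The RefSeq start sites of Chat and Slc18a3 are 1059 bases apart on the same strand, yet the windows differ in composition. GC content was 54.8% for Chat, 66.0% for Slc18a3 and 45.6% for Slc5a7, with 8, 21 and 1 CpG, against medians of 52.4% and 6 over 32851 windows of the same length. On both strands, 6 motifs were searched. The E-box CACGTG was matched once, in Chat (6.02% of all windows hold it). The GC box GGGCGG, printed as its complement CCGCCC, was matched only in Slc18a3 of the 3 (32.7% of all windows), and the TATA box TATAAA only in Slc5a7 (12.4%). None of these windows held the CRE TGACGTCA (1.55% of all), the homeodomain core TAATTA (4.84%) or the left part of the RE1 element, TTCAGCACC, (0.301%). No motif was common to the 3 windows. These are letter matches, not sites of binding, and no factor was measured.

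Chat, Slc18a3 and Slc5a7, the genes of acetylcholine supply, were all low in Model 1 and 2. Chat was at 1.049 and 0.751 CPM in Model 1 and 2, at 4.31 and 3.19 in Model 3 and 4, and at 4.73, 4.46, 3.54 and 4.17 in IsoL 1 to 4. Model 1 and 2 were low, and Model 3 lay inside the IsoL range. The low values rest on 15 and 12 reads, with exact 95% Poisson intervals of 0.587 to 1.73 and 0.388 to 1.31 CPM; the interval for Model 4 began at 2.35 CPM, so the gap inside the Model group exceeded counting error, which is all these intervals cover. Group means were 2.33 ± 1.71 (SD, n = 4) in Model and 4.23 ± 0.510 in IsoL. The log2 difference was 0.87 (SE 0.45, 95% interval -0.14 to 1.87) and did not pass (edgeR adjusted p = 0.447).

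Slc18a3, which fills the vesicles, was also lowest in Model 1 and 2. It stood at 0.559, 1.001, 3.55 and 1.77 CPM in Model 1 to 4 and at 2.27, 2.61, 2.53 and 2.57 CPM in IsoL 1 to 4. The highest and the lowest library were both Model libraries, so the groups overlapped. Exact 95% Poisson intervals of Model 2 (0.572 to 1.63 CPM) and Model 4 (1.15 to 2.59) overlap, while that of Model 1 (0.242 to 1.10) ends just below Model 4. Of the low pair, only Model 1 was thus apart from Model 4 beyond counting error here. The IsoL libraries were tightly set, with a mean of 2.49 ± 0.152 CPM against 1.72 ± 1.32 in Model (log2 difference 0.54, 95% interval -0.36 to 1.45, edgeR adjusted p = 0.611). Counts were low throughout, from 8 reads in Model 1 to 56 in IsoL 4.

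Slc5a7, the choline transporter whose uptake limits transmitter synthesis, was the most abundant of the 3. Its level was 9.58 and 10.1 CPM in Model 1 and 2, 25.3 and 20.6 in Model 3 and 4, and 18.4, 19.7, 20.7 and 22.1 in IsoL 1 to 4. With 137 to 482 reads per library Model 1 and 2 were low beyond counting error, and Model 3, as for Slc18a3, exceeded every IsoL library. The group means, 16.4 ± 7.80 and 20.2 ± 1.58 CPM, did not differ past the threshold (log2 difference 0.31, 95% interval -0.46 to 1.07, edgeR adjusted p = 0.732). Without Model 2, the library that stood apart, the log2 differences were 0.56 for Chat, 0.35 for Slc18a3 and 0.13 for Slc5a7 (edgeR adjusted p = 0.530, 0.788 and 0.904).

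**Figure D1:**
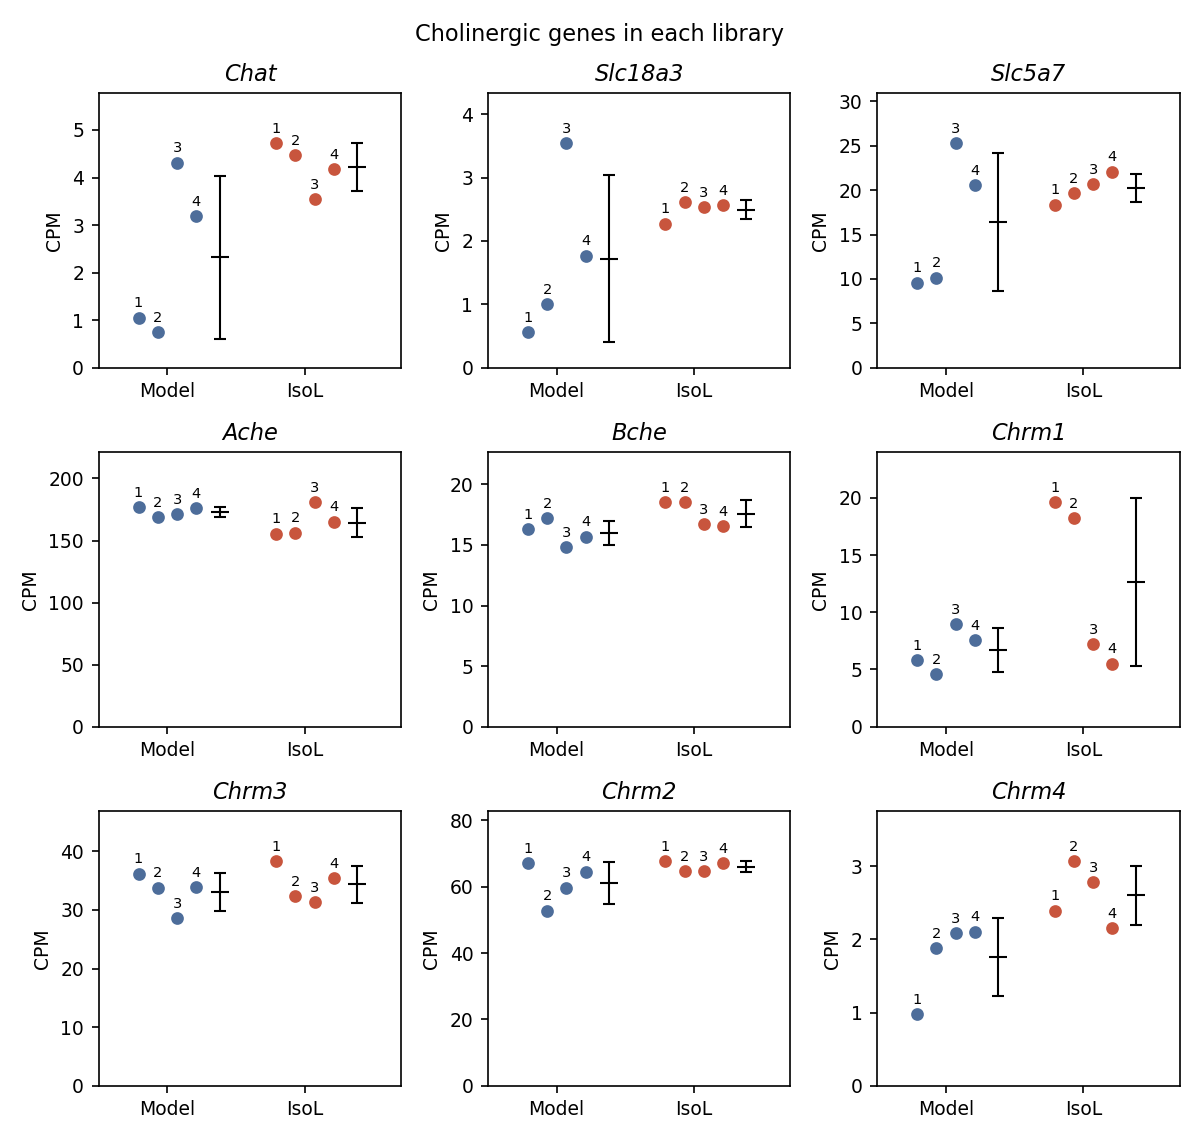
Level of each of the 9 genes in CPM (vertical axes, from 0) in the 4 Model (blue) and 4 IsoL (red) libraries, numbered by replicate; black bars are the group mean ± SD. Model 1 and 2 are low for Chat, Slc18a3 and Slc5a7, IsoL 1 and 2 are high for Chrm1, and the groups are apart only for Chrm4.

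Markers of the medial habenula, a nucleus above the thalamus that holds cholinergic neurons among others, moved with these 3 genes. For 6 of its 7 markers, Model 1 and Model 2 were both below every other library. The exception was Chrnb3, at 15.8 and 12.0 CPM in Model 1 and 2 and at 12.1 to 21.1 in the others. Gpr151, an orphan receptor of habenular neurons, was at 3.99 and 4.88 CPM in Model 1 and 2 and at 10.8 to 16.0 elsewhere. Chrnb4, a nicotinic subunit of the same cells, was at 3.15 and 3.004 against 5.28 to 9.81 CPM. With the mean log level of these markers in the fit, the log2 difference was 0.19 for Chat, -0.15 for Slc18a3 and -0.24 for Slc5a7 (edgeR adjusted p = 0.8999, 0.928 and 0.569). The sign turned for Slc18a3 and Slc5a7. That mean level, centred on each gene, was -0.78 and -0.68 in Model 1 and 2 and -0.034 to 0.54 elsewhere. For 2 of the 7 markers, Pou4f1 and Gng8, every IsoL library was above every Model library, against 4.05% of the 14536 genes tested. The markers thus share the low pair and part of the group difference, so this fit cannot test a habenular part. In this bulk RNA, fewer cells of a type and less RNA per cell cannot be told apart.

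Other genes were lowest in Model 1 and 2 as well. Among raphe genes, Tph2, which makes serotonin, was at 1.75 and 1.001 CPM in Model 1 and 2, at 3.36 and 2.21 in IsoL 2 and 3 and at 10.7 to 21.4 in the other 4 libraries. The serotonin transporter gene Slc6a4 had the same 4 low libraries, at 0.501 to 2.26 CPM against 4.21 to 16.9, so the raphe genes did not share the low pair alone. Both Model 1 and Model 2 were below every other library for Zic4 and Slc17a8 of the 10 cholinergic identity genes, for 2 of 4 astrocyte markers and for 1 of 8 striatal markers. The part of any of these, or of the habenula, in the values of Chat, Slc18a3 and Slc5a7 was not tested. Lhx8, a homeobox gene of basal forebrain and striatal cholinergic neurons, was at 1.82, 1.44, 2.37 and 2.31 CPM in Model 1 to 4 and at 1.38 to 2.67 in IsoL. Mnx1, of spinal motor neurons, had 0 reads in all 8 libraries. The 8 striatal markers summed to 170 to 189 CPM in Model and 174 to 181 in IsoL.

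The genes closest in pattern were searched among 14028 others by Pearson correlation of log CPM over the 8 libraries, which is given as a description, since low values in Model 1 and 2 alone give a high coefficient. Nearest to Chat were Scube3 (r = 0.984, Spearman 0.952), Cad (0.978 and 0.857) and Atp13a1 (0.978 and 0.881). Nearest to Slc18a3 were Necab2, Tulp3 and Tesc (r = 0.986, 0.983 and 0.976; Spearman 0.905, 0.833 and 0.976). For Slc5a7 they were Piezo1, Gm5741 and Tesc (r = 0.987, 0.987 and 0.984; Spearman 0.976, 0.905 and 0.738), so that Tesc was on both lists. Scube3 showed the shape plainly, at 6.99 and 6.95 CPM in Model 1 and 2 and at 10.6 to 12.4 in the other libraries.

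**Figure D2:**
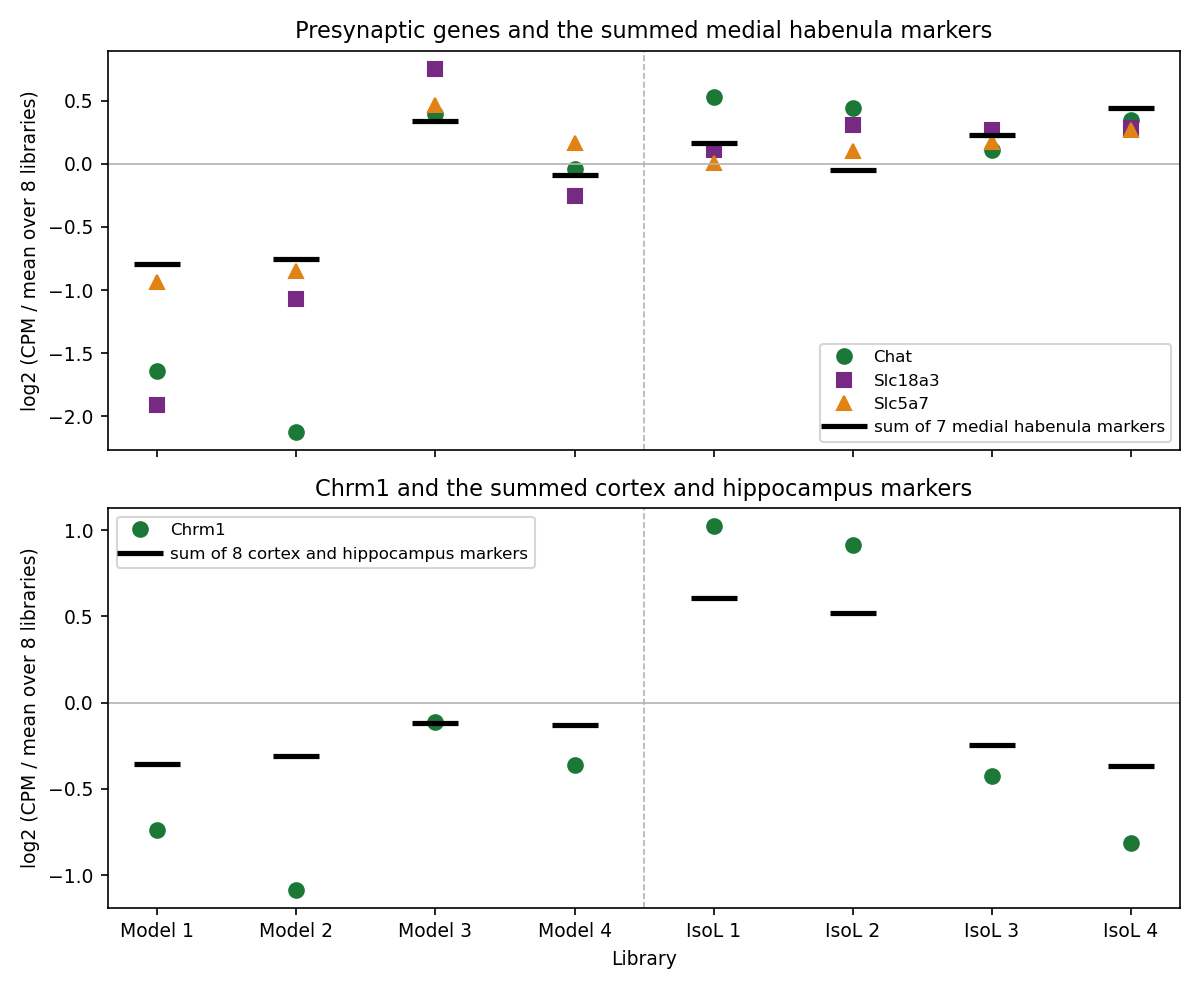
Upper panel, Chat, Slc18a3 and Slc5a7 beside the sum of 7 medial habenula markers; lower panel, Chrm1 beside the sum of 8 cortex and hippocampus markers; vertical axes give log2 of CPM over the mean of the 8 libraries, and the dashed line parts Model from IsoL. The presynaptic genes and the habenula sum are low in Model 1 and 2 together, and Chrm1 and the cortical sum are high in IsoL 1 and 2 together.

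The enzymes that end the signal were far steadier. Ache (ENSMUSG00000023328, chromosome 5, 137285781 to 137292728, plus strand), which is made by cholinergic and by many cholinoceptive neurons, was at 177, 169, 171 and 176 CPM in Model 1 to 4 and at 156, 156, 181 and 165 in IsoL 1 to 4. IsoL 1 and 2 were the lowest and IsoL 3 the highest of all 8. Means were 173 ± 3.94 CPM in Model and 165 ± 11.9 in IsoL (log2 difference -0.07, 95% interval -0.19 to 0.04, edgeR adjusted p = 0.591), an interval from 0.878-fold to 1.03-fold. Without IsoL 1 and 2, the pair with high cortical markers, it was -0.00054, and with the cortical and hippocampal marker score in the fit -0.013 (edgeR adjusted p = 0.998 and 0.954). Since IsoL 1 and 2 were also the lowest for Ache, neither value tests a part of cortical tissue. Unlike Chat, Ache was not low in Model 1 and 2: the ratio of its deposited FPKM to that of Chat was 171 and 228 there and 33.5 to 56.1 in the other 6 libraries.

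Bche (ENSMUSG00000027792, chromosome 3, 73543141 to 73615748, minus strand) encodes butyrylcholinesterase, a less selective esterase found mainly in glia and in some neurons of the brain. It was at 16.3, 17.2, 14.8 and 15.7 CPM in Model and at 18.5, 18.6, 16.7 and 16.5 in IsoL 1 to 4. The values of IsoL 1 and 2 topped the range, and Model 2 exceeded IsoL 3 and 4. The log2 difference was 0.13 (95% interval -0.05 to 0.32, edgeR adjusted p = 0.528). It was 0.054 without IsoL 1 and 2, the highest libraries for Bche (edgeR adjusted p = 0.927). Per length, Ache exceeded Bche 12.2-fold and 12.3-fold in IsoL 1 and 2 and 14.3-fold to 16.8-fold in the other 6 libraries. Of the anchors that tether acetylcholinesterase, Prima1, which holds it in the neuronal membrane, was at 6.81 ± 1.047 and 7.63 ± 0.382 CPM, and the collagen tail gene Colq at 1.06 ± 0.322 and 0.789 ± 0.262 (n = 4 each; edgeR adjusted p = 0.635 and 0.620).

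Among the receptors, Chrm1 (ENSMUSG00000032773, chromosome 19, 8641153 to 8660951, plus strand), the main excitatory muscarinic receptor of cortex and hippocampus, varied most. It was at 5.80, 4.57, 8.97 and 7.54 CPM in Model 1 to 4 and at 19.6, 18.2, 7.21 and 5.50 in IsoL 1 to 4. IsoL 1 and 2 were high, while IsoL 3 and 4 lay inside the Model range, so the group mean of 12.6 ± 7.31 CPM describes no IsoL library. Against 6.72 ± 1.93 CPM in Model the log2 difference was 0.91 (SE 0.49, 95% interval -0.26 to 2.07, edgeR adjusted p = 0.486). Without IsoL 1 and 2 it was -0.086 (edgeR adjusted p = 0.949). This only restates that IsoL 3 and 4 lie inside the Model range, since the high libraries were the ones left out.

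Cortical and hippocampal markers were high in the same pair of libraries. Neurod6, a transcription factor of forebrain excitatory neurons, was at 19.8 and 14.3 CPM in IsoL 1 and 2 and at 1.39 to 3.19 in the other 6, and Neurod2, of the same family, at 16.2 and 12.3 against 0.883 to 2.38. Slc17a7, a vesicular glutamate transporter, was at 160 and 146 CPM against 58.9 to 81.5. In all, 6 of the 8 markers on the list were higher in both IsoL 1 and IsoL 2 than in any other library. Cux2, which marks upper layers of the neocortex, was not among them, at 66.4 and 74.6 CPM against 63.9 to 74.8 in the others. With the mean log level of the cortical and hippocampal list in the fit, the log2 difference of Chrm1 was 0.06 (edgeR adjusted p = 0.940). That mean level, centred on each gene, was 1.006 and 0.86 in IsoL 1 and 2 and -0.39 to -0.11 elsewhere. It is high in the same pair, so a cortical part in the Chrm1 values was not tested by this fit. The genes nearest to Chrm1 were Arhgef3, Lzts1 and Fam53b (r = 0.986, 0.986 and 0.982; Spearman 0.952, 0.976 and 0.905 over 8 libraries), of which Lzts1 was at 29.2 and 24.9 CPM in IsoL 1 and 2 and at 12.9 to 17.2 elsewhere.

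Chrm3 (ENSMUSG00000046159, chromosome 13, 9925522 to 10410883, minus strand), the other Gq-coupled member, did not follow Chrm1. It was at 36.2, 33.8, 28.6 and 33.9 CPM in Model and at 38.4, 32.3, 31.4 and 35.4 in IsoL 1 to 4. The ranges overlapped over most of their length. The log2 difference was 0.05 (95% interval -0.13 to 0.24, edgeR adjusted p = 0.824), which spans 0.915-fold to 1.18-fold.

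Chrm2 (ENSMUSG00000045613, chromosome 6, 36365019 to 36505349, plus strand), a Gi-coupled receptor that serves as an autoreceptor on cholinergic terminals, was at 67.1, 52.8, 59.7 and 64.5 CPM in Model and at 67.8, 64.6, 64.8 and 67.2 in IsoL 1 to 4. Its lowest value was that of Model 2, and the IsoL libraries were within 1.049-fold of each other. Means were 61.0 ± 6.29 and 66.1 ± 1.62 CPM (log2 difference 0.12, 95% interval -0.03 to 0.26, edgeR adjusted p = 0.492). Without Model 2 the log2 difference was 0.053 (edgeR adjusted p = 0.698).

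Chrm4 (ENSMUSG00000040495, chromosome 2, 91757594 to 91759033, plus strand), the Gi-coupled receptor of striatal and other forebrain neurons, was the 1 member whose groups did not overlap. It was at 0.979, 1.88, 2.09 and 2.11 CPM in Model 1 to 4 and at 2.39, 3.07, 2.78 and 2.15 in IsoL 1 to 4. Every IsoL library was above every Model library, the closest pair being Model 4 and IsoL 4. Model 1 and 2 were below all other libraries, as they were for Chat, Slc18a3 and Slc5a7. The exact 95% Poisson intervals of Model 2 (1.27 to 2.68 CPM) and Model 3 (1.41 to 2.98) overlap, however. All IsoL libraries were above all Model libraries for 4.05% of the 14536 genes tested, and groups were apart in either direction for 8.48%, so 1 of 9 members is near that background. The log2 difference was 0.55 (SE 0.26, 95% interval 0.00197 to 1.10, edgeR unadjusted p = 0.0493) and did not pass after adjustment over all genes (edgeR adjusted p = 0.377). It rests on 105 reads in Model and 183 in IsoL, and the exact 95% Poisson intervals of Model 4 (1.43 to 2.99 CPM) and IsoL 4 (1.58 to 2.86) overlap. Without Model 1 the log2 difference was 0.36 (edgeR unadjusted p = 0.135, adjusted p = 0.526). It was 0.39 with the habenular marker level in the fit (edgeR adjusted p = 0.749), which tests no habenular part. The nearest patterns were those of Thbs2, Nfkb2 and Dnah11 (r = 0.990, 0.970 and 0.969; Spearman 0.929, 0.833 and 0.976), and Thbs2 was at 8.88 CPM in Model 1 and 13.6 to 17.1 in the other libraries.

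Compared per length, in the deposited FPKM (read counts divided by gene length and library total), the order of median levels over the 8 libraries was Ache at 37.0, Chrm2 at 10.7, Chrm3 at 5.42, Slc5a7 at 3.55, Bche at 2.48, Chrm4 at 1.49, Chrm1 at 1.14, Slc18a3 at 0.996 and Chat at 0.826. Ache, Chrm2 and Chrm3 were each above the next gene over their whole range. Slc5a7 and Bche overlapped, with Slc5a7 the higher in 6 of 8 libraries, and Bche was above Chrm4 in all 8. The last 4 genes overlapped their neighbours, Chrm4 being above Chrm1 in 5 of 8, Chrm1 above Slc18a3 in 6 of 8 and Slc18a3 above Chat in 7 of 8 libraries. Chrm1 had more reads than Chrm4 in every library (73 to 320 against 14 to 53), with deposited lengths of 6487 and 1440 bases. The order of Chrm4 and Chrm1 thus depends on those lengths.

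Chrm2 was the leading muscarinic receptor gene in every library, with 44.4% to 50.2% of the summed FPKM of the 5 receptor genes. Chrm3 held 20.9% to 28.7% and came next in 7 of 8 libraries. In Model 3 it was just below Chrm5 (20.9% and 21.1%), although Chrm3 had 411 reads there and Chrm5 106. All these shares depend on the deposited gene lengths, 1440 bases for Chrm4 against 6053 to 6487 for Chrm1, Chrm2 and Chrm3. Whether those lengths cover like parts of each transcript was not checked. Chrm1 made up 12.0% and 12.1% in IsoL 1 and 2 and 3.75% to 6.32% in the other libraries. The 2 Gi-coupled genes together held 53.2 ± 1.09% (n = 4) in Model and 55.5 ± 3.34% in IsoL, a difference within the spread of the IsoL libraries (51.0% to 58.9%). Chrm5, a Gq-coupled receptor of midbrain dopamine neurons and no member of the set, stood at 5.80 ± 1.27 CPM over Model libraries and 4.49 ± 0.618 over IsoL libraries (log2 difference -0.36, edgeR adjusted p = 0.407). Its share was 14.2% to 21.1% in Model and 10.0% to 13.7% in IsoL, while its CPM overlapped, at 4.26 to 7.37 and 3.71 to 5.10; a share also moves with the other receptors in the sum.

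**Figure D3:**
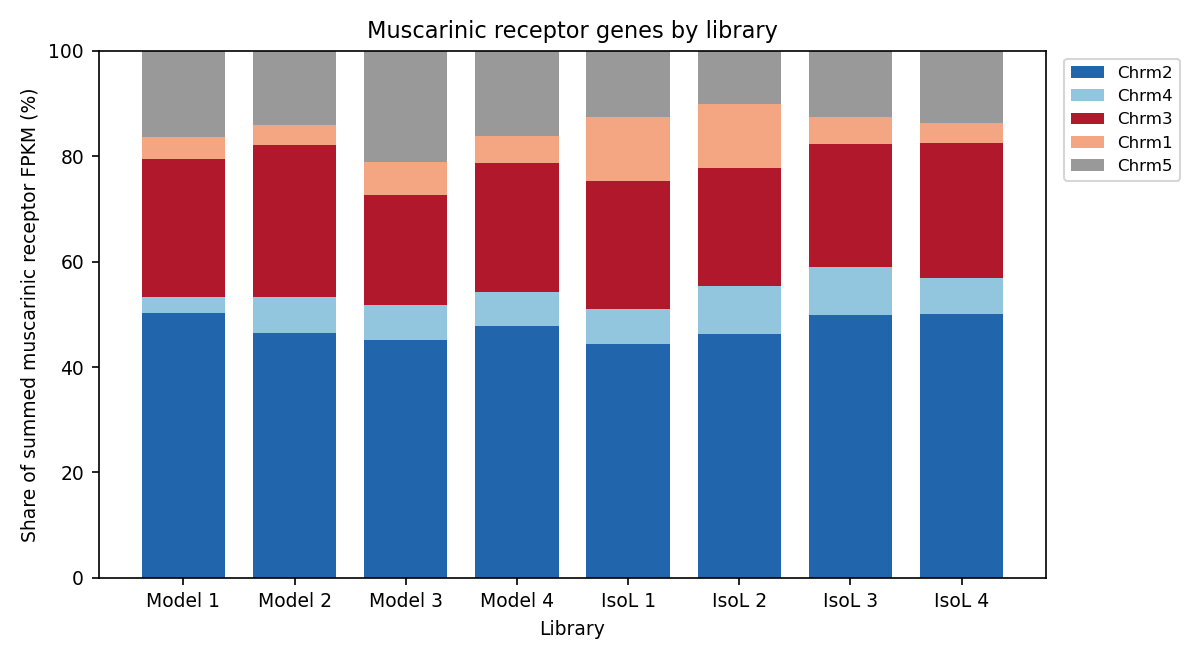
Stacked bars of the share (%) of each of the 5 muscarinic receptor genes in their summed FPKM, 1 bar per library. Chrm2 takes 44.4% to 50.2% throughout, and the Chrm1 segment is widest in IsoL 1 and 2, at 12.0% and 12.1%.

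Over the whole set, 0 of 9 members passed edgeR's quasi-likelihood test after adjustment over all genes, where 40 of 14536 genes did (0.275%). At an unadjusted p under 0.05 there was 1 member, Chrm4, against 13.2% of all genes tested. DESeq2 called 0 of 9 and 305 of 15253 genes (2%), and limma voom 0 of 9 and 175 of 14536 (1.2%). Of the 9, 8 had a log2 difference above 0 and Ache had one below 0, with a median of 0.31, beside 49.5% of all genes above 0 and a median of -0.00146. The members share libraries, and Chat, Slc18a3, Slc5a7 and Chrm4 were each lowest in Model 1 and 2, so these are not 9 separate counts. Members differed in how closely the data bound them: the 95% interval was 0.915-fold to 1.18-fold for Chrm3 and 0.878-fold to 1.03-fold for Ache, but 0.910-fold to 3.67-fold for Chat and 0.837-fold to 4.19-fold for Chrm1. Within groups, the SD of log2 CPM was 0.81 for Chat, 0.74 for Slc18a3, 0.50 for Slc5a7 and 0.71 for Chrm1. Among tested genes of like level (within 0.5 log2), 2.90%, 5.36%, 1.20% and 0.936% had a larger one. For Ache, Bche, Chrm2, Chrm3 and Chrm4 that share was 23.0% to 83.9%.

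**Figure D4:**
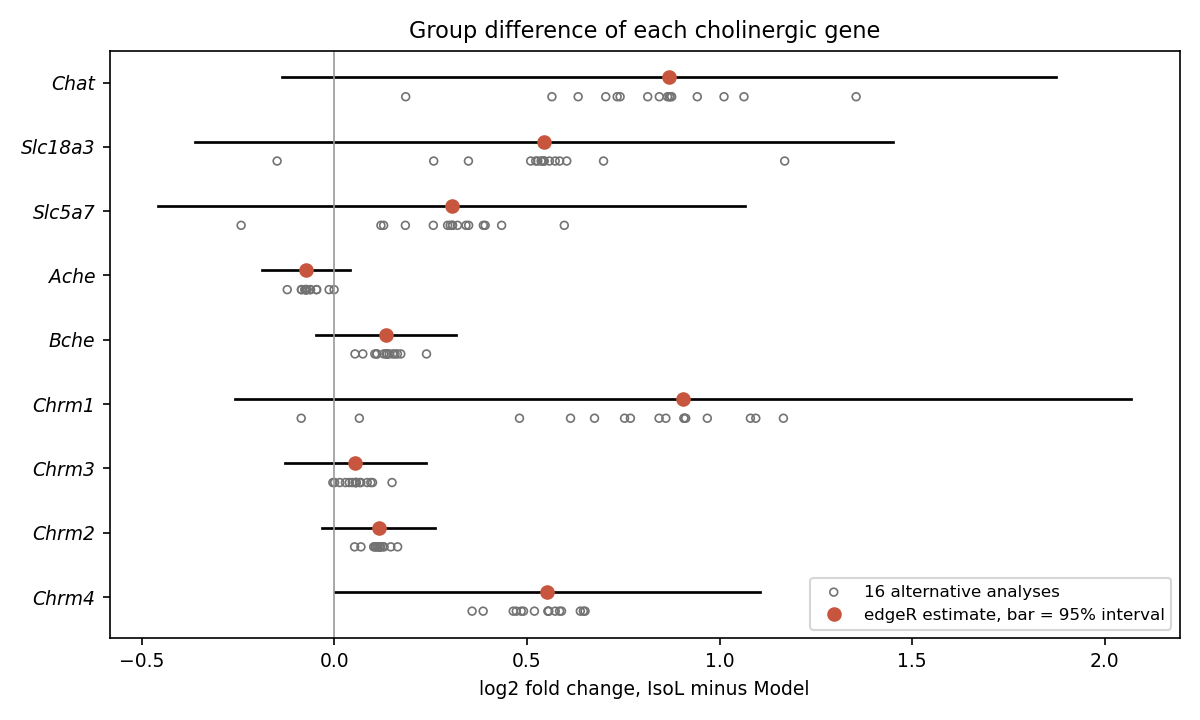
Log2 difference of IsoL minus Model (horizontal axis) for each gene, with the edgeR estimate (red) and its 95% interval (bar), and open circles for the 16 alternative analyses. The intervals of Ache, Bche, Chrm2 and Chrm3 are narrow around 0, and those of Chat, Slc18a3, Slc5a7 and Chrm1 are wide.

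The wider pathway was read from lists of 55 further genes, of which 50 had enough reads to be tested. Of these, 0 passed in either direction, 9 had an unadjusted p under 0.05 (against 13.2% of all tested genes), 21 had a log2 difference above 0 and 29 below, and the median was -0.04. All IsoL libraries were below all Model libraries for 5 of the 50, against 4.42% of all tested genes, and above for 0, against 4.05%. In choline and acetyl-CoA supply, 0 of 13 tested genes passed. The smallest p values there belonged to Dlat, a subunit of the pyruvate dehydrogenase complex that makes acetyl-CoA (145 ± 7.02 CPM in Model and 135 ± 0.637 in IsoL, n = 4, edgeR adjusted p = 0.344), to Slc44a1, a choline carrier (117 ± 5.06 and 127 ± 5.60 CPM, edgeR adjusted p = 0.366), and to the related Slc44a5 (log2 difference -0.19, edgeR adjusted p = 0.474).

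In the signalling arm that Chrm1 and Chrm3 use, 0 of 12 genes passed and the median log2 difference was 0.04. Rgs2, which speeds the turn-off of Gq, averaged 71.7 ± 8.02 CPM over Model libraries and 60.4 ± 4.90 over IsoL libraries (n = 4, log2 difference -0.25, edgeR adjusted p = 0.215). Rgs4, a regulator of both Gq and Gi, was at 469 to 488 CPM in Model and at 418, 441, 308 and 263 in IsoL 1 to 4, with all IsoL libraries lower (log2 difference -0.41, edgeR adjusted p = 0.344). Plcb4, a phospholipase that Gq activates, had a log2 difference of -0.10 (edgeR adjusted p = 0.432). In the arm of Chrm2 and Chrm4, 0 of 14 passed and the median was -0.05. Adcy5, an adenylyl cyclase that Gi inhibits, was at 200.5 ± 5.66 and 184 ± 5.26 CPM (log2 difference -0.12, edgeR adjusted p = 0.245), Rgs7, which turns off Gi and Go, at 75.5 ± 2.96 and 68.8 ± 2.77 CPM (edgeR adjusted p = 0.285) and the inward rectifier channel gene Kcnj5 at 12.7 ± 0.307 and 11.0 ± 0.865 CPM (edgeR adjusted p = 0.367).

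In the list of cholinergic neuron identity, 0 of 8 tested genes passed. Isl1, a LIM homeobox gene of cholinergic and of hypothalamic neurons, had the smallest adjusted p of the pathway genes. It was at 14.5, 11.7, 15.4 and 16.2 CPM in Model 1 to 4 and at 7.86, 8.12, 12.9 and 8.85 in IsoL 1 to 4. The groups overlapped only through Model 2 and IsoL 3 (log2 difference -0.62, SE 0.16, edgeR adjusted p = 0.118). The direction was opposite to that of Chat, and the hypothalamic marker sum was lower in every IsoL library than in any Model library; its part in the Isl1 values was not tested. Slc10a4, a vesicular protein of cholinergic and aminergic endings, was at 19.8 ± 2.66 and 16.0 ± 3.05 CPM (n = 4, edgeR adjusted p = 0.350). Gbx1, a homeobox gene of the developing basal forebrain, was at 0.550 to 1.04 CPM in 7 libraries and at 2.32 in IsoL 2 (edgeR adjusted p = 0.440).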

How the data were processed

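RNA was extracted with Trizol, 3 µg per library, poly-A selected, randomly primed and amplified over 15 PCR cycles, per the labels' protocols. No strand marking is stated. The submitters' processing notes name fastp 0.22.0, HISAT2 2.1.0 and HTSeq 0.9.1. Coordinates are on a build not given in the sources used here, and 517 of 21851 shared gene identifiers start where GENCODE M21 (GRCm38) has them. The authors deposited read counts and FPKM values per gene and library, and the gene length behind them, per the file headers. Counts were used for all tests, FPKM for levels between genes.

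Groups came from the sample titles. filterByExpr kept 14536 genes, all 9 members among them. Counts were scaled with TMM and tested in edgeR 4.0.16 (R 4.3.3) by the robust quasi-likelihood F-test with Benjamini-Hochberg adjustment over all tested genes at 0.05. The SE is the absolute log2 difference over the square root of F. CPM use TMM-scaled totals; log CPM use a prior count of 2. A total of 3 counts equals 0.139 to 0.210 CPM, a floor for counting error only. Members and lists were chosen with earlier results of these data known. Named were all members, and of each pathway list the genes that passed and the 3 with the smallest p (1 in lists under 10 genes); other genes named were chosen after their values were seen. Likeness was searched among tested genes of at least 1 CPM. Alternatives were DESeq2 size factors, no filter, a replicate block, each library left out, DESeq2 1.42.0, limma 3.58.1 voom, leaving out IsoL 1 and 2, and each of 2 marker scores as covariate. In a simulation of this comparison with 14536 genes, 48% of 50 genes changed 1.25-fold, 64% changed 1.5-fold, 82% changed 2-fold and 94% changed 3-fold were recovered, with 13 false calls among 157. The changed genes were drawn at random and each gene was simulated on its own, so libraries that move together were not modelled. These shares are therefore no measure of recovery for Chat, Slc18a3, Slc5a7 and Chrm1, whose spread exceeded that of most genes of like level. Promoter windows are RefSeq's (GRCm38.p6) and matched 8 of 9 members. Figures used matplotlib 3.10.9.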

Additional observations from a re-analysis of the deposited data

How the results depend on the processing

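Of 144 values of the 9 genes under 16 alternatives, 140 kept their direction and none passed the threshold. The other 4 turned: Chrm1 to -0.086 without IsoL 1 and 2, Slc18a3 to -0.15 and Slc5a7 to -0.24 with the habenula score as covariate, and Chrm3 to -0.00371 without Model 3. The cause was not tested. With 1 library left out, Chat ranged from 0.56 (without Model 2) to 1.35 (without Model 3), Slc18a3 from 0.26 (without Model 1) to 1.17 (without Model 3), Slc5a7 from 0.12 (without Model 1) to 0.60 (without Model 3), Chrm1 from 0.61 (without IsoL 1) to 1.17, Chrm3 from -0.00371 to 0.099, Chrm4 from 0.36 (without Model 1) to 0.65, Chrm2 from 0.053 (without Model 2) to 0.16, Ache from -0.12 (without IsoL 3) to -0.046 (without IsoL 1) and Bche from 0.11 to 0.17. The count of changed genes, 40, was 74 with no filter, 17 with the replicate block, 305 in DESeq2, 175 in limma voom, 64 with the habenula score and 6 (without Model 4 or IsoL 2) to 146 (without Model 2) with 1 library left out. Replicate numbers are not stated to pair libraries: same-numbered libraries deviated together with r of 0.026, 0.020, 0.070 and 0.063, 1 of 4 Model libraries correlated best with its own number, and the block changed no call of the 9 genes. Depth limits Chat, Slc18a3 and Chrm4 most, with 8 to 91 reads per library.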
